A study of Mus musculus with 4 samples.

Results

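Deep intragenic peaks are sites of RIF1 binding that lay inside a gene but far from any annotated start of transcription. They were taken from the list of RIF1 intervals of activated mouse B cells by position alone: an interval on chromosomes 1 to 19, under 50 kb wide, that overlapped a gene body and whose midpoint was more than 10 kb from the nearest 5′ end of any annotated transcript. By this rule 2074 of 15635 autosomal peaks were deep intragenic, which is 13.3% (95% Wilson confidence interval 12.7 to 13.8%). The series holds chromatin immunoprecipitation followed by sequencing (ChIP-seq) of primary splenic B cells in 2 groups of 2 samples. Rif1FH cells came from Rif1FH/FH mice, in which both copies of Rif1 carry a FLAG-HA tag, and Rif1WT cells came from untagged C57BL/6 (Rif1WT/WT) mice as the negative control. All cells were grown in LPS at 5 µg/ml with IL-4 at 5 ng/ml and taken 72 h after activation. Every sample was thus of stimulated cells, whose division was not measured here. The mice's age was not given in the labels. The antibody label named the CD43 beads used to isolate the cells, whereas the protocol described precipitation with anti-HA. The list merged both Rif1FH replicates and gave positions without a height, a score or a value per sample, and it holds no value of the Rif1WT samples. Read depth was therefore unknown, no spread between replicates and no test between groups could be computed, and the intervals printed below cover counting along the genome. The cell type could not be checked against markers, since the list measures no expression.

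RIF1 is a large chromatin protein that carries protein phosphatase 1 to replication origins and thereby sets when parts of the genome are copied. In B cells it is also known as a partner of 53BP1 that protects broken DNA ends from resection during class switch recombination. The protein binds G-quadruplex DNA, a fold of guanine-rich strands. Introns of long genes are common places for enhancers, which are short elements bound by lineage transcription factors such as PU.1 and its ETS relatives, E-proteins, EBF1, RUNX and AP-1.

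The sequence at the centre of such a peak is shown first for a list of B cell transcription factor genes. The list was made by hand to hold regulators of the cell type studied, and their expression was not measured here. The middle 200 bases of the widest deep intragenic peak centred outside an untranslated region are given for the 5 genes of this list with most such peaks (ties by width), leaving out genes whose sequence is not printed here. All are the + strand of build mm9, 5′ to 3′, with matches to the searched transcription factor motifs in capitals. CpG dinucleotides, CA and GA repeats and potential G-quadruplexes are not marked.
Erg, chr16:95649891-95650090: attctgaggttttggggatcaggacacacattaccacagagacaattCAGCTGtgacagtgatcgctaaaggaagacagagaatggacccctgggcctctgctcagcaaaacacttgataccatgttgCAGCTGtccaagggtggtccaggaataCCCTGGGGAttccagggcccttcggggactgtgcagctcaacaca
Ebf1, chr11:44706657-44706856: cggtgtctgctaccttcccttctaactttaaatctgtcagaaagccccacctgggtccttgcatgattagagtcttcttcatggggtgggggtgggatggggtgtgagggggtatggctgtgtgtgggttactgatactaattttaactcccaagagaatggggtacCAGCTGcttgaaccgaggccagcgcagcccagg
Mef2c, chr13:83789005-83789204: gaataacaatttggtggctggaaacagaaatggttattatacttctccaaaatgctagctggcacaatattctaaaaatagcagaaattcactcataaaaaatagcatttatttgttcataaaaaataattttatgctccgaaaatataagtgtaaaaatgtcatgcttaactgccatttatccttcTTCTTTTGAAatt
Prdm1, chr10:44220242-44220441: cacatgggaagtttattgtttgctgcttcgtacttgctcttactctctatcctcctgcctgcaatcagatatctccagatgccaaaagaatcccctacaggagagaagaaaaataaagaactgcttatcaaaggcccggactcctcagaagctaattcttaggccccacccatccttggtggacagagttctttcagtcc
Rere, chr4:149746832-149747031: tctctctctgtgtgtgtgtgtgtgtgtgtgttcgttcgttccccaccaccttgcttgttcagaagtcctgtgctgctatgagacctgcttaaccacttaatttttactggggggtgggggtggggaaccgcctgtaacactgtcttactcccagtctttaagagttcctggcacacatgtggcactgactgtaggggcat
The Erg window held the letters of the E-box bound by E-proteins (CAGCTG) at positions 48 and 129 and those of EBF1 (CCCNNGGGA, either strand) at position 156, counted from 1 at the left end. In Ebf1 the E-box stood at position 168, and in Mef2c a STAT6 site, an inverted repeat with a spacer of 4 bases, stood at position 188. The windows in Prdm1 and Rere held no match to a factor motif, which says only that those letters are absent from them. The Rere window opens with GA and CA repeats. GC content ran from 28.0% in Mef2c to 53.5% in Ebf1, so the centres differed widely in base composition.

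PU.1 is an ETS factor that opens chromatin in B and myeloid cells. Among the motifs described below, it had the highest share relative to gene sequence of equal GC content, though not relative to the other backgrounds. Matches to its letters (GAGGAAGT, or ACTTCCTC on the other strand) are therefore shown in capitals, with the 26 bases on either side, for peaks with such a match in the B cell factor genes and in the genes with most deep intragenic peaks, taking the match nearest the midpoint. This set was chosen after the motif shares were seen, and it leaves out matching peaks in Nfatc1 and D18Ertd653e, whose sequence is not printed here.
Mef2c, chr13:83748597-83748656: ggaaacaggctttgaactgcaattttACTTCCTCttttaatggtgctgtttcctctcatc
Runx1, chr16:92645242-92645301: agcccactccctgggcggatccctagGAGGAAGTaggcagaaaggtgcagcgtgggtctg
Prkce, chr17:86736529-86736588: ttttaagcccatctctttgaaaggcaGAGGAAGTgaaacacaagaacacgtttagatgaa
Prkce, chr17:86778062-86778121: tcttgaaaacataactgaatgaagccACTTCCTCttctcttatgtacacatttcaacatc
Flt3, chr5:148163634-148163693: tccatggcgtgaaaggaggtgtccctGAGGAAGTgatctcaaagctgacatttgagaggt
The matches lay from 12 bp to 134 bp from the peak midpoint, in peaks from 935 bp wide (Mef2c and Flt3) to 2878 bp wide (Prkce). In Runx1, which encodes a RUNX factor of blood development, the peak was 32.2 kb from the nearest 5′ end. The Prkce peaks were 153 kb and 112 kb from one.

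The rule left a set with a sharp edge at 10 kb. The nearest members inside it were peaks in Smad3, a transducer of TGF-beta signals, at 10027 bp, Stra8 at 10035 bp and Cplx2 at 10043 bp. Just outside it were peaks in Rnf122 at 9995 bp, Zfp445 at 9994 bp and Myct1 at 9975 bp. None of the 2074 overlapped a TSS window, which is 1 kb on each side of a 5′ end, and 2037 (98.2%) lay wholly within a single gene body. In 16 the interval touched a gene while the midpoint lay outside. The median distance from a 5′ end was 25194 bp, with quartiles of 15445.5 and 46997 bp, and 152 peaks were beyond 100 kb. The farthest were in Immp2l, a mitochondrial membrane peptidase gene, at 429 kb, in Gpc6, a glypican gene, at 427 kb, and in Dscam, a neuronal adhesion gene, at 351 kb.

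To ask how densely RIF1 occupied the interior of genes, peaks were counted per Mb of eligible sequence, which is gene sequence without N that lies more than 10 kb from every 5′ end and outside the wide intervals from which the authors removed peaks. Eligible gene sequence came to 568 Mb, or 23.7% of the autosomes, and held 3.65 deep intragenic peaks per Mb. Gene-free sequence at the same minimum distance came to 1059 Mb and held 3.14 peaks per Mb, from 3326 peaks. The ratio of both densities was 1.16 (95% interval 1.10 to 1.23, from the exact binomial interval of the share). Over the 19 autosomes the ratio was 1.19 ± 0.246 (SD), from 0.787 on chromosome 14 to 1.68 on chromosome 16, and it was above 1 on 14 and below 1 on 5. The density inside genes itself ran from 2.12 per Mb on chromosome 14 to 5.85 per Mb on chromosome 19.

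**Figure D1:**
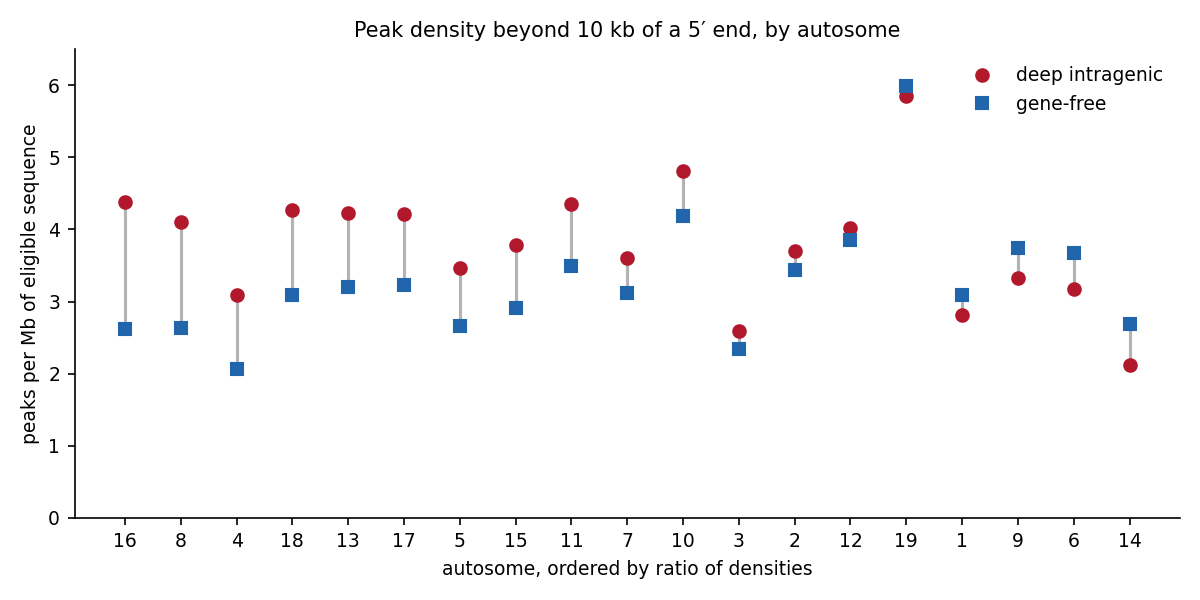
Peaks per Mb of eligible sequence (vertical axis) for each of the 19 autosomes, ordered by the ratio of both densities. Circles are deep intragenic peaks and squares are gene-free peaks beyond 10 kb, and circles lie above squares on 14 autosomes, with 5.85 per Mb on chromosome 19 as the highest value inside genes.

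Distance from a start changed that comparison. Between 10 and 20 kb, deep intragenic peaks occurred at 5.19 per Mb (796 peaks, exact Poisson 95% interval 4.83 to 5.56), against 6.28 per Mb (5.88 to 6.70) in gene-free sequence. Between 20 and 50 kb the densities were 3.99 (3.72 to 4.27) and 5.01 (4.73 to 5.29) per Mb. From 50 to 100 kb they were 2.77 and 2.84 per Mb, with intervals that overlapped. From 100 to 200 kb they were 2.00 (1.68 to 2.37) inside genes and 1.69 (1.52 to 1.87) outside. Beyond 200 kb both were 0.63 per Mb, from 19 peaks inside genes. At matched distance the density inside genes was thus lower up to 50 kb, although it was higher over all distances pooled. Gene-free sequence had more of its length far from a start, with 223 Mb beyond 200 kb against 30.1 Mb inside genes.

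**Figure D2:**
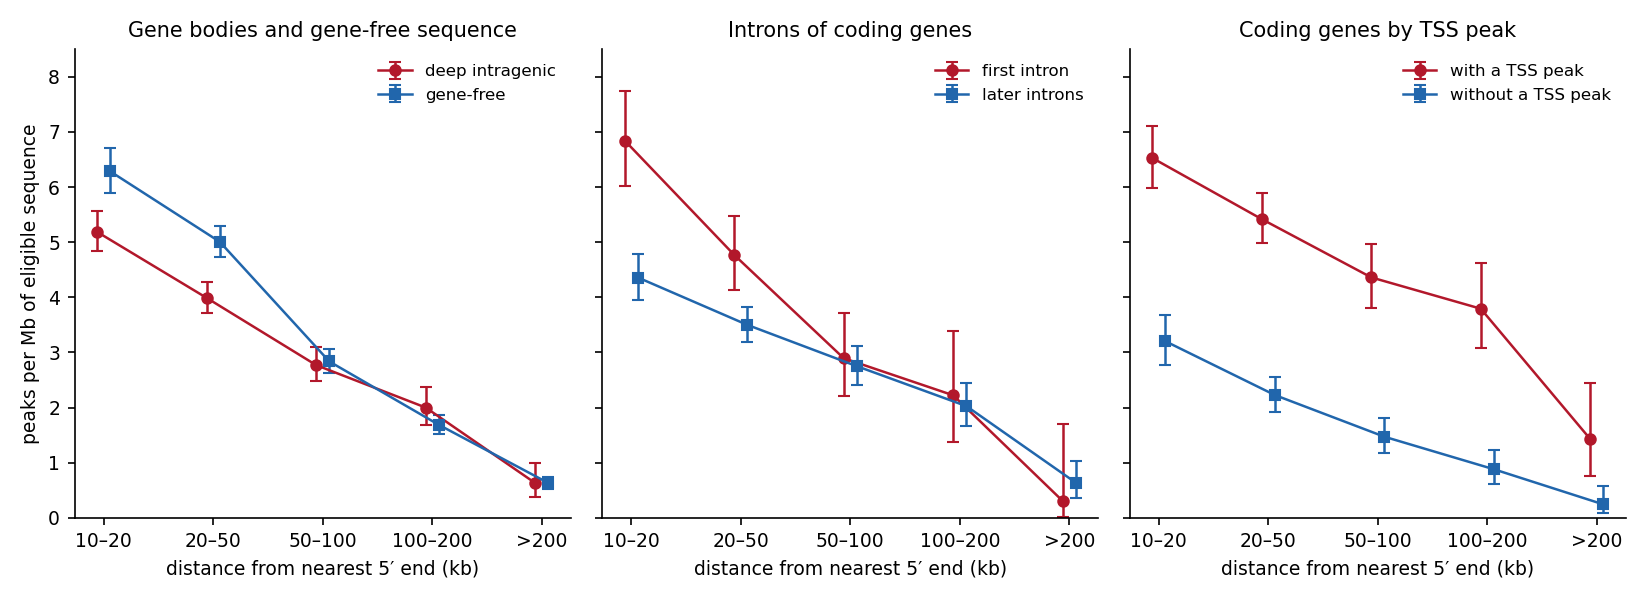
Peaks per Mb of eligible sequence against distance from the nearest 5′ end (kb), with exact Poisson 95% intervals, for gene bodies and gene-free sequence (left), introns of coding genes (middle) and coding genes with or without a TSS peak (right). Every curve falls with distance; first introns stand above later introns up to 50 kb, and genes with a TSS peak stand above the others in all 5 distance classes.

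Most deep intragenic peaks were centred in introns. The intron count was 1938, or 93.4% (92.3 to 94.4%), and introns made up 96.2% of eligible gene sequence. Exons held 120 midpoints, 5.79% (4.86 to 6.87%), against 3.84% of eligible sequence. Of these, 55 were in coding exons (2.65%, against 1.74% of sequence) and 49 in untranslated exons (2.36%, against 1.68%). Because a peak is wider than most exons, 351 of the intervals (16.9%) met an exon somewhere along their length.

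Early introns held more than their share. Of 1808 peaks centred in an intron of the longest transcript of a coding gene, 528 were in the first intron, 29.2% (27.2 to 31.3%), while first introns made up 21.7% of eligible intron sequence. Densities were 4.74 per Mb in first introns, 4.32 in second introns, 2.82 in other internal introns and 3.58 in last introns. The difference between first and later introns stood near the start: at 10 to 20 kb it was 6.84 (6.02 to 7.75) against 4.36 (3.96 to 4.79) per Mb, and at 20 to 50 kb 4.77 (4.13 to 5.48) against 3.50 (3.20 to 3.82) per Mb. From 50 to 100 kb, densities of 2.89 and 2.75 per Mb could not be told apart by their intervals. Toward the other end of genes, 139 of 1957 peaks (7.10%, 6.05 to 8.33%) lay within 5 kb of the 3′ end, where 4.85% of the eligible sequence lay. With genes cut into 10 equal parts, the density was 4.21 per Mb in the part at the 5′ end, lowest at 3.15 in part 6 and 3.81 in part 10.

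Deep intragenic peaks were narrow. Their median width was 1168.5 bp (1136 to 1201 bp by order statistics) with quartiles of 807 and 1711 bp, and together they covered 2.94 Mb. Gene-body peaks nearer a start had a median of 1132.5 bp (1093 to 1183 bp) and gene-free peaks beyond 10 kb one of 1211 bp (1189 to 1248 bp). Peaks at TSS windows were wider, with a median of 1562 bp (1539 to 1583 bp), and their median was the larger on 19 of 19 autosomes. Among the widest deep intragenic peaks was one of 7111 bp in Prkag2, a subunit gene of AMP-activated kinase. A peak of 6978 bp at Slc1a2, a glutamate transporter gene, had its midpoint outside the gene, and 1 of 6781 bp lay in Gm15518.

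The peaks were richer in GC than their surroundings, without resembling promoters. In windows of 400 bp at the midpoint, median GC content was 47.75% (47.50 to 48.00%), against 45.25% in windows 3 kb to either side and 41.75% across 1406241 windows that tile eligible gene sequence. Gene-free peaks beyond 10 kb had 47.25% and peaks at TSS windows 59.00%. Mean CpG frequency rose to 1.74 per 100 bp at the centre of deep intragenic peaks from 1.05 at distances of 2.5 kb or more. At TSS windows it reached 6.31. A CpG island, meaning any 200 bp window with GC above 50% and an observed to expected CpG ratio above 0.6, was found in 408 deep intragenic peaks, 19.7% (18.02 to 21.4%). Intervals of the same widths displaced by 5 kb to either side held one in 8.03% (7.24 to 8.90%). The share was 24.3% (22.9 to 25.8%) among gene-free peaks beyond 10 kb and 89.1% among those at TSS windows.

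**Figure D3:**
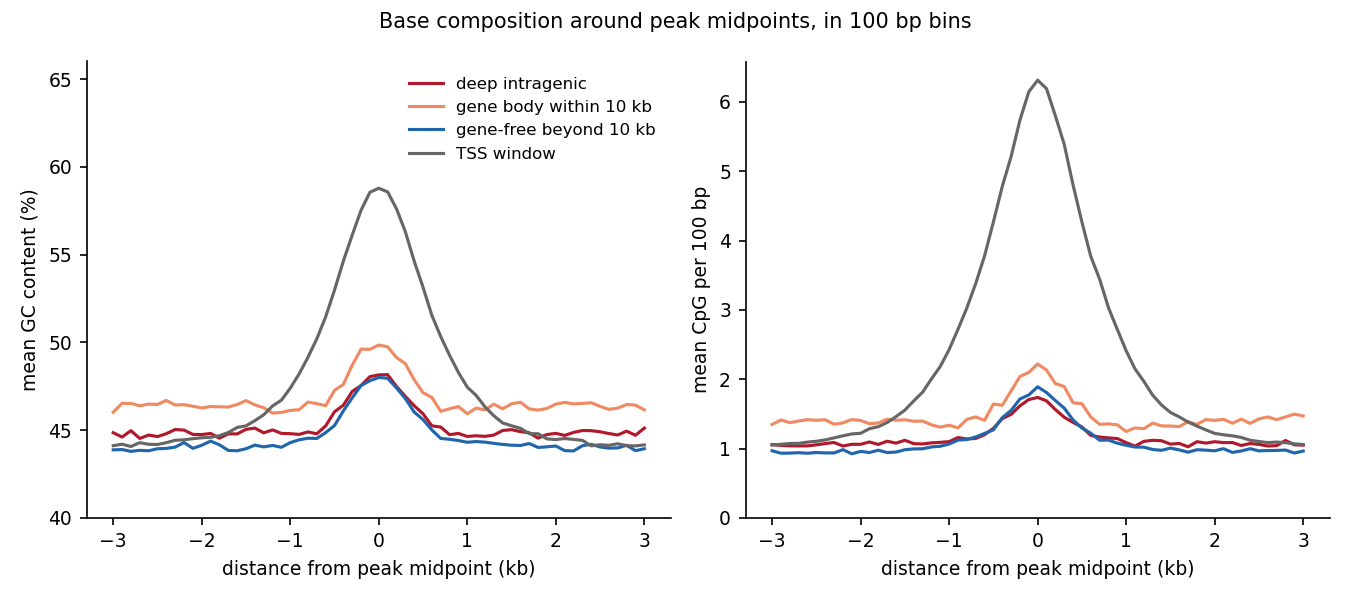
Mean GC content (left, %; the axis starts at 40) and mean CpG dinucleotides per 100 bp (right) in 100 bp bins within 3 kb of peak midpoints, for 4 classes of peaks. The curve of deep intragenic peaks tops out at 48.2% GC and 1.74 CpG per 100 bp, close to the gene-free curve and far below the 58.8% and 6.31 of peaks at TSS windows.

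Letters of several searched factor motifs were found in more of the 400 bp centres than in nearby or composition-matched sequence. Octamer, STAT and STAT6 letters were not more frequent than in flanks. Letters were searched on both strands, the share over all eligible tiles was reweighted to the GC content of the peaks, and no test was made. PU.1 letters were in 136 of 2074 centres, 6.56% (5.57 to 7.71%), against 2.48% of flanks, 2.35% of all tiles and 2.79% at equal GC, a ratio of 2.35. The ETS letters CCGGAAG were in 4.24% (3.46 to 5.20%), against 1.52% of flanks, 1.07% of tiles and 2.15% at equal GC. AP-1 letters (TGANTCA), read by FOS and JUN dimers, were in 18.5% (16.9 to 20.2%), against 12.3%, 11.9% and 11.1%. The ETS-IRF composite (GAANNGAAA), on which PU.1 and IRF4 pair, was in 17.2% (15.6 to 18.9%), against 11.6%, 14.0% and 11.1%. RUNX letters (TGTGGTT) were in 12.7% (11.4 to 14.2%), against 8.95%, 9.20% and 8.58%.

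E-box letters were the most common of the factor motifs, in 25.0% of centres (23.2 to 26.9%), against 18.96% of flanks, 14.6% of tiles and 20.8% at equal GC. EBF1 letters were in 7.96% (6.87 to 9.20%), against 5.67%, 3.601% and 6.22%, and NF-kappaB letters (GGANTTTCC) in 2.22% (1.67 to 2.95%), against 1.47%, 1.23% and 1.33%. The octamer of OCT factors (ATGCAAAT) was in 3.09% (2.42 to 3.92%), close to its 3.26% in flanks and in tiles and above the 2.202% of tiles at equal GC. STAT letters (TTCNNNGAA) were in 12.2% (10.9 to 13.7%), against 12.4% of flanks and 11.6% at equal GC. STAT6 letters were in 10.8% (9.58 to 12.3%), against 11.3% and 9.94%. The medium held IL-4, which acts through STAT6, but STAT6 binding was not measured. The interval of the peaks lay above both the flanks and the tiles at equal GC for PU.1, ETS, AP-1, ETS-IRF, RUNX, E-box, EBF1 and NF-kappaB letters, and included the flanks for octamer, STAT and STAT6 letters. Gene-free peaks beyond 10 kb and gene-body peaks nearer a start held these letters at close or higher shares: PU.1 letters were in 7.25% and 8.13% of their centres, ETS letters in 4.30% and 4.68%, AP-1 letters in 17.7% and 17.04% and RUNX letters in 12.4% and 12.55%. These shares were therefore not particular to deep intragenic peaks.

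G-quadruplex, CTCF and YY1 letters were no more frequent in the peaks than beside them. A potential G-quadruplex, written as 4 runs of at least 3 G with loops of 1 to 7 bases, was in 164 centres, 7.91% (6.82 to 9.15%). Flanks held it in 8.25%, all tiles in 6.05%, tiles at equal GC in 10.5% and TSS peaks in 22.6%. The CTCF site, read by the factor that holds chromatin loops, was in 2.22% (1.67 to 2.95%) of deep intragenic centres and in 4.30% (3.66 to 5.04%) of gene-free ones, with 2.85% in flanks. YY1 letters (AAGATGGC) were in 2.266% (1.71 to 3.0%), against 3.06% of flanks. The GC box GGGCGG, bound by SP factors, was in 9.59% (8.40 to 10.9%), against 5.55% of flanks, in 11.7% (10.7 to 12.9%) of gene-free centres and in 50.7% of TSS centres. Both it and the ETS letters contain a CpG. The CACACACA and GAGAGAGA repeats were in 13.2% and 7.57% of centres, against 14.6% and 7.74% of flanks.

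**Figure D4:**
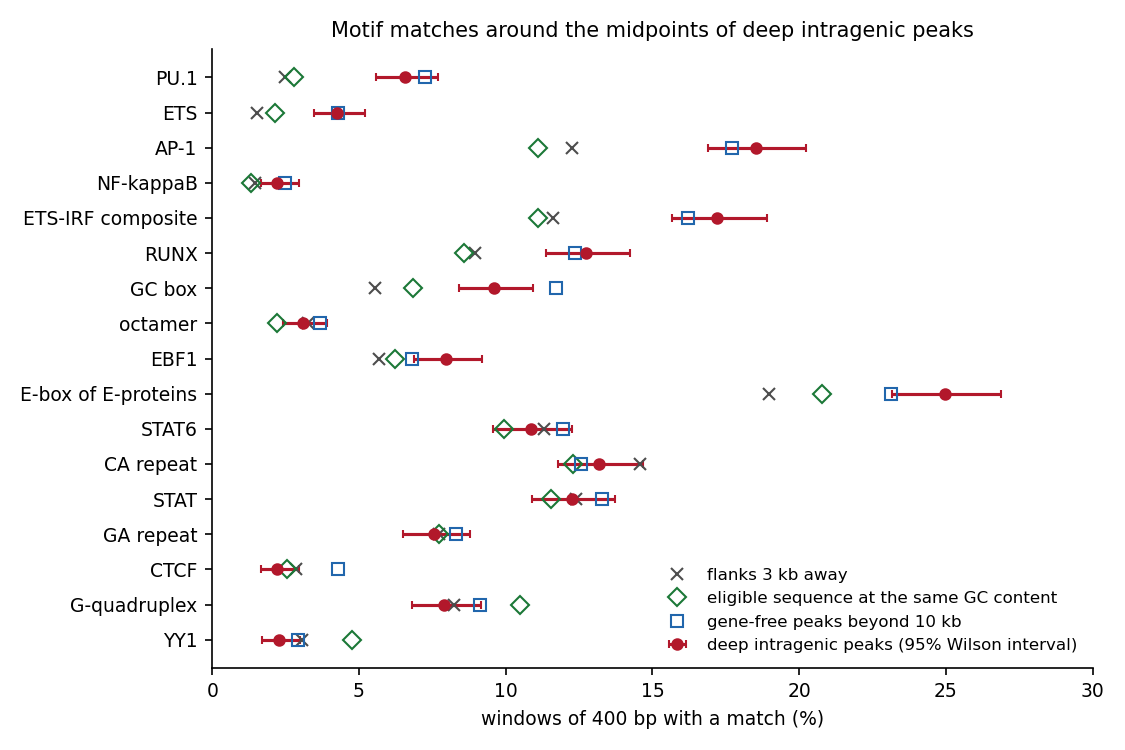
Share of 400 bp windows with a motif match (%), for deep intragenic peaks (circles with 95% Wilson intervals), their flanks 3 kb away (crosses), eligible gene sequence at the same GC content (diamonds) and gene-free peaks beyond 10 kb (squares), ordered by the ratio of circle to diamond. PU.1 is at the top with 6.56% against 2.79%, and YY1 at the bottom with 2.266% against 4.77%.

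Deep intragenic peaks were spread over many genes. A coding gene was the host of 1969 (94.9%), with 57 in lincRNA genes, 44 in genes of processed transcripts and 4 in pseudogenes. There were 1124 coding hosts, of which 708 (63.0%) held a single peak, 215 held 2 and 201 held 3 or more. The last group held 831 peaks, 42.2% of those with a coding host. Among 7987 coding genes with at least 1 kb of eligible sequence, 14.0% held a deep intragenic peak. This share rose with eligible length, from 3.03% at 1 to 10 kb to 22.2% at 50 to 100 kb and 35.5% at 200 kb or more. Counts per gene below should be read against length, as the median host was 119 kb long and the median eligible gene 52.9 kb.

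The genes with most peaks were mainly long. Atxn1, which encodes the co-repressor ataxin-1, and Hivep3, a zinc finger gene, each held 13. Prkce (protein kinase C epsilon) held 11, as did D18Ertd653e, and Gm20388 held 12 in a gene model that encloses 72 other coding genes, for which a host cannot be assigned with confidence. Pde4d and Pde4b, whose products degrade cyclic AMP, held 10 and 9. Trio held 9, and Hecw2, a ubiquitin ligase gene, and Flt3 held 8 each. All 10 genes, the uncertain Gm20388 among them, also had a TSS peak, against 4369 of 7987 eligible coding genes. Within them the peaks were uneven. In Hivep3, 12 of 13 lay between 226 and 329 kb from the gene's 5′ end, and in Pde4b 6 of 9 lay between 420 and 444 kb. In Pde4d the 10 were spread from 76.8 to 1373 kb of a 1504 kb gene.

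**Figure D5:**
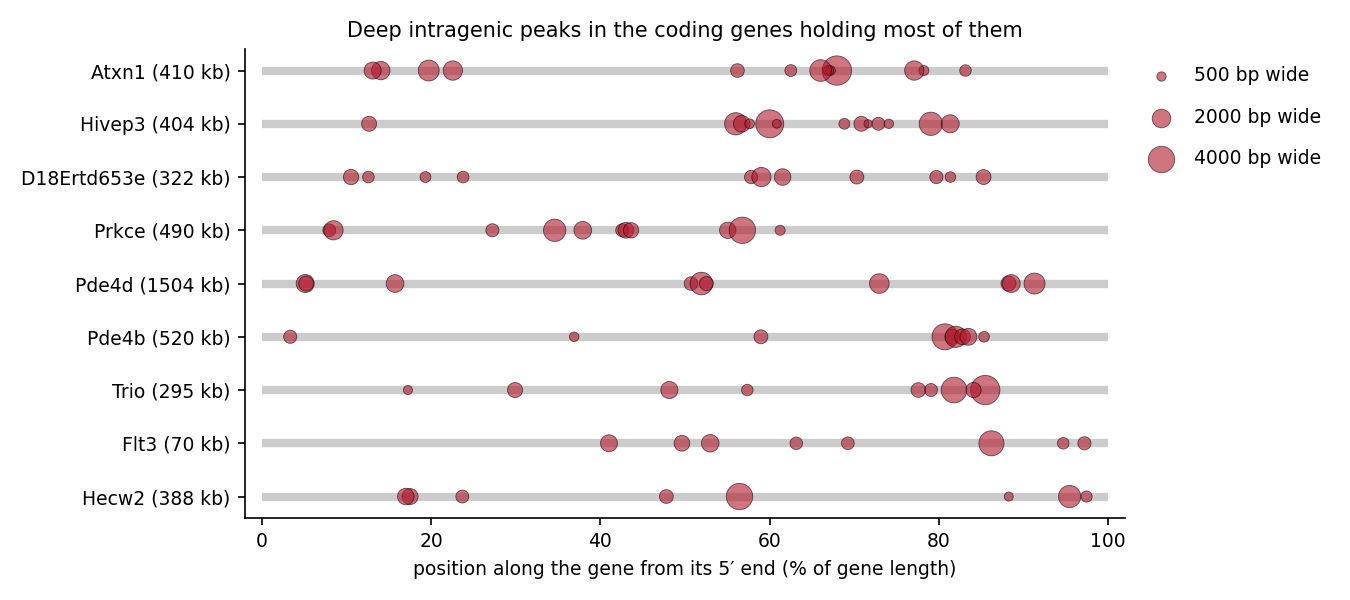
Positions of deep intragenic peaks in the 9 coding genes holding most of them (Gm20388, which encloses other genes, is not drawn), as % of gene length from the 5′ end, with circle area proportional to peak width. Peaks gather in stretches, as in Hivep3 and Pde4b, where 12 of 13 and 6 of 9 lie in a single part of the gene.

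Flt3, the receptor tyrosine kinase gene of early blood progenitors, had both many peaks and a high density, at 14.0 per 100 kb of eligible sequence. Its 8 peaks formed the longest run, defined as neighbours closer than a set gap that is given with the processing, over 40.5 kb (chr5:148143765-148184285). Their widths were from 772 to 3615 bp, and the 5′ end nearest to each of the 8 belonged to another gene (Prhoxnb or Gm17398), at 10.2 to 36.0 kb. Higher densities per 100 kb were found in 3 genes with little eligible sequence. Scn4a, a muscle sodium channel gene, held 3 peaks in 14.6 kb (20.5 per 100 kb). St3gal2, a sialyltransferase gene, held 3 in 19.7 kb (15.2), and Slc12a3, a kidney salt transporter gene, held 4 in 27.0 kb (14.8). These densities rest on few peaks. None of these 3 genes had a TSS peak. For 1 of the 3 peaks in Scn4a the nearest 5′ end was that of Cd79b, a chain of the B cell receptor, and for 3 of the 4 in Slc12a3 it was that of Gm15889. The 4 peaks in BC049352, at 11.1 per 100 kb, were nearest to starts of Tmprss4 or of Il10ra, which encodes the interleukin 10 receptor. Pla1a, Mybpc1, Igf2bp2 and Paqr5, with 3 peaks each, and Hspa12a with 4 completed the 10 densest genes, at 8.60 to 11.1 per 100 kb.

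Over all deep intragenic peaks centred in a coding gene, the nearest 5′ end belonged to another gene in 695 of 1957, 35.5% (33.4 to 37.7%). Of windows tiling eligible sequence of coding genes, 39.4% were nearest to another gene's start. Of all 2074, 1373 (66.2%) had no other deep intragenic peak within that gap, and 271 (13.1%) were in the 76 runs of 3 or more. The shares that evenly scattered peaks would give were not computed. Counting peaks of any class, 823 (39.7%) had one under 10 kb away. After Flt3, the longest runs were 6 peaks in 38.4 kb of Map2k6, a kinase gene of the p38 pathway, and 6 peaks each in Pde4b (26.3 kb) and Fam134b (26.2 kb), a receptor gene of endoplasmic reticulum turnover. The nearest peak of any class was a median of 14.7 kb away (13.8 to 15.7 kb), against 13.5 kb for gene-free peaks beyond 10 kb and 5.79 kb for gene-body peaks nearer a start. The rule keeps members more than 10 kb from any 5′ end, and 48.2% of autosomal peaks lay in TSS windows. The contrast with peaks nearer a start is therefore partly set by membership.

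Binding inside a gene went with binding at its start. Genes whose starts lay in wide intervals were left out of these counts. Of 4354 eligible coding genes that had a peak in a TSS window, 755 also held a deep intragenic peak, 17.3% (16.2 to 18.5%), at 5.31 per Mb. Of 3468 without a TSS peak, 354 did, 10.2% (9.24 to 11.3%), at 1.96 per Mb. The ratio of densities was 2.71, and it was above 1 on 19 of 19 autosomes (mean 2.87 ± 1.01 SD, from 1.65 to 5.80). It widened with length, from 1.06 in genes with 1 to 10 kb of eligible sequence to 1.70 at 50 to 100 kb and 4.68 at 200 kb or more, where the densities were 3.80 and 0.813 per Mb. At matched distance from a 5′ end the densities in genes with and without a TSS peak were 6.53 (5.99 to 7.11) and 3.20 (2.78 to 3.67) per Mb at 10 to 20 kb, and 3.79 (3.08 to 4.62) and 0.881 (0.610 to 1.23) per Mb at 100 to 200 kb. The densities by distance also count genes whose starts lay in wide intervals and genes with under 1 kb of eligible sequence. Seen from the hosts, 756 of 1111 whose starts lay outside wide intervals had a TSS peak, 68.0% (65.2 to 70.7%), whereas 3599 of 6713 eligible genes without a deep intragenic peak did, 53.6% (52.4 to 54.8%). Whether the genes were transcribed was not measured in these samples.

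Genes of B cell transcription factors held deep intragenic peaks more often than coding genes as a whole, where 14.0% did. Of 22 with eligible sequence, 10 (45.5%) held at least 1, where eligible genes of like lengths would give 25.8%. The density was 8.94 per Mb (5.79 to 13.2), against 3.63 per Mb over all eligible coding genes. The median eligible length of the list was 101 kb, against 25.3 kb. Of the 22, 16 had a TSS peak. Eligible genes with a TSS peak, as counted above, held 5.31 per Mb, with 7.05 at 100 to 200 kb of eligible sequence and 3.80 at 200 kb or more. Tcf4, which encodes an E-protein, held 6 peaks, from 651 to 1809 bp wide and 13.04 to 69.7 kb from a 5′ end. Erg, an ETS gene, held 5, of which 4 formed a run of 22.2 kb. Nfatc1, a calcium-responsive factor gene, held 4, at 11.5, 16.5, 89.8 and 97.0 kb. Ebf1, which specifies the B lineage, held 3, of 889, 456 and 894 bp, and had no TSS peak. Mef2c held 2. Single peaks were in Prdm1, the plasma cell regulator, in Runx1, Foxp1, Zeb2 and in the co-repressor gene Rere. Of 43 genes of this list 24 overlapped a wide interval, of which 19 had under 1 kb of eligible sequence and 5, Foxp1 and Rere among them, had more.

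In B cell signalling genes, 15 of 29 (51.7%, with 23.3% for like lengths) held a deep intragenic peak, at 6.47 per Mb (4.14 to 9.62). Of the 29, 21 had a TSS peak, against 4369 of 7987 eligible coding genes. Elmo1, which acts with Dock2 in Rac activation, held 5, of 519 to 2252 bp, all within a run of 20.2 kb. Prkcb, the kinase that links the B cell receptor to NF-kappaB, held 3, of which 2 were 0.630 kb apart. Fyn, a Src-family kinase gene, Pik3ap1, an adaptor gene of phosphoinositide 3-kinase, and the survival gene Bcl2 held 2 each. The other 10 genes held 1 each, among them Blk, Plcg2 and Nfkb1. Of these 15 genes, 9 had a TSS peak, a lower share than in the 29. The direction was thus opposite to that over all eligible coding genes, where hosts had the higher share.

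A high share was also found outside the B cell lists. Of 13 T cell genes 8 (61.5%, with 20.4% for like lengths) held a deep intragenic peak, at 8.96 per Mb (5.12 to 14.5). Tox, a nuclear factor gene, held 5, and Prkcq, a kinase gene of T cell receptor signalling, held 3. Of 9 myeloid genes 3 did (33.3%, with 12.4%), at 3.39 per Mb (0.924 to 8.69, 4 peaks). A single gene without a peak, 1700112E06Rik, made up 82.0% of the eligible sequence of that list, and without it the density was 18.9 per Mb (5.14 to 48.3). In the other lists with a peak, leaving out any 1 gene moved the density by less than 1.5 times. What share of the cells were T or myeloid cells was not measured, and its part in these values was not tested. Long neuronal genes were at the other end, with 20 peaks in 43.1 Mb, or 0.464 per Mb. There 13 of 49 held one (26.5%, with 35.0% for like lengths). The longest length class, 200 kb and over, has no upper limit, and the median eligible length of this list was 841 kb. The 35.0% is therefore only loosely matched for length. Density inside genes also fell to 0.63 per Mb beyond 200 kb from a start, and the list was not matched for distance. Odz4, which encodes a teneurin, held 5 of the 20, and each of the other 12 held 1 or 2. Among genes of replication timing and repair, 14 of 16 had a TSS peak, against 4369 of 7987 eligible coding genes. Of these 16 genes, 0 held a deep intragenic peak, with 14.2% for like lengths. Their eligible sequence was 0.883 Mb, in which a count of 0 allows up to 3.40 per Mb by the limit of 3 counts and up to 4.18 per Mb by the two-sided exact Poisson interval used for the other densities. The 3.63 per Mb of all eligible coding genes lay between these limits.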

How the data were processed

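ChIP-seq was performed in 4 samples, of which the deposited list covers both Rif1FH samples as 1 merged set. Per the methods and the processing notes, the authors trimmed reads with Trim Galore 0.6.4, aligned them to mm9 with Bowtie 1.0.0 keeping unique reads, called peaks with MACS2 2.2.6 and domains with EDD, and combined calls of both replicates with bedtools 2.27.1. Sequences of chromosome 18 are not printed, which left out Tcf4, Nfatc1 and D18Ertd653e. The deposited values are positions (start and end) with no read count, signal or score, so depth is unknown. Unique alignment drops reads from sequence that is repeated without differences, peaks overlapping a domain were removed, and a call in both replicates omits sites near the detection limit. The 289 intervals of 50 kb or wider were taken as domains, and "peaks" are the other 16043 of 16332.

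Genes were those of GENCODE M1 on NCBIM37 (mm9), with coordinates counted from 1. The host of a peak was the shortest coding gene holding its midpoint, otherwise a noncoding gene holding it, otherwise the gene with the longest overlap. Intron order was that of the host's longest transcript. Motif windows were 400 bp, flanks 3 kb away, and tiles were reweighted in strata of 5 percentage points of GC with at least 100 windows (2063 peaks). CTCF and STAT6 were searched with spaced consensus letters. Shares have 95% Wilson intervals, medians order-statistic intervals and densities exact Poisson intervals. These cover counting error only, treat neighbouring peaks as independent, and no p-value was computed. The density ratio has an exact binomial interval. "Like lengths" gives each gene of a list the percentage of all eligible genes in its length class.

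Named genes were the 10 with most deep intragenic peaks, the 10 densest with at least 3, those with most peaks in each B cell list, and the widest, farthest, nearest to the 10 kb limit and longest runs (gap under 12.5 kb). Some of the widest peaks are not reported here. Genes of the other 4 lists were named after their values were seen. Members, the 6 lists (240 names, of which 3 matched no coding gene) and the 18 motifs were chosen with earlier results of these data known, so no list adds independent support. Membership and the density ratio were tested on simulated data. The simulated intervals were single bases on some of the autosomes, with wide intervals not taken out. They therefore do not test peaks that cross a gene edge or the removal of domains. A repeat-masked share was planned, but the genome sequence marks no repeats. The alternatives were 8 changes of the membership rule, and leaving out single genes of a list was added after seeing the data. Python 3.11.15, numpy 2.4.6, scipy 1.17.1 and pysam 0.24.0 were used.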

Additional observations from a re-analysis of the deposited data

Results flagged for a closer look

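The X chromosome lies outside the rule, and its peaks form a signal in data that the comparisons above do not use. On X, 28 peaks met the remaining conditions, in 30.8 Mb of eligible gene sequence, which is 0.908 per Mb against 3.65 per Mb on the autosomes. They lay in 17 host genes and had a median width of 991 bp. A single gene, 6720401G13Rik, held 11 of the 28, Gpm6b held 2 and Clcn5 held 1. The sex of the mice and the number of X chromosomes per cell were not given in the labels, and the part of either in this density was not tested.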

How the results depend on the processing

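Of 48 values (6 results under 8 alternatives), 34 stayed within the interval of the reported value, or within 1.5 times of the reported count, 14 moved and none reversed. The membership count was 1278 beyond 20 kb. Among peaks at or above the median width of all autosomal peaks (1370 bp) it was 782, their median width was 1937.5 bp, 91.4% were intronic, the density ratio was 1.06 (0.968 to 1.16, an interval that includes 1) and 48.9% of hosts had a TSS peak, TSS peaks being held to the same width. The intronic share was 92.1% beyond 5 kb, 94.6% beyond 20 kb, 86.9% with coding 5′ ends and 95.1% with whole peaks inside 1 gene and beyond 10 kb. The ratio was 1.32 with coding 5′ ends. Median GC content was 47.5% beyond 5 kb, 46.9% beyond 20 kb and 47.6% with coding 5′ ends. The cause was not tested, except that a changed distance or width changes the members by construction. Coding gene bodies alone, leaving out enclosing genes, and merging peaks under 1 kb apart moved none of the 6. No paired analysis was possible because no interval carries a value for a single sample, and leaving out a replicate could not be run for the same reason. Depth, peak height and the Rif1WT background remain unknown, so a weak site and a strong one count alike.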

Other observations

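The closeness of deep intragenic peaks to wide intervals was set beside that of eligible gene sequence. Within 100 kb of a wide interval lay 37 of 2074, 1.78% (1.30 to 2.45%), against 2.83% of eligible gene sequence, while within 500 kb lay 289, 13.9% (12.51 to 15.5%), against 12.2%. The first share has an interval below its background and the second one above it. No test was made.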
